A study of Mus musculus with 3 samples.

Results

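The transcripts of the MYC, MAX and MXD network were described in J774A.1 cells, an established mouse macrophage line, held for 6 h in 3 media. The members are Myc, Max, Mxd1, Mxd3, Mxd4, Mxi1, Mnt, Mlx and Mga, taken as all probes whose gene name in the scanner files equals one of these symbols. They are 9 of 27572 named genes or transcripts and 18 of 41125 probes on the array, and 6 of the 9 members have more than 1 probe. The first group (RPMI) was kept in RPMI medium with 10% fetal bovine serum. The second (EBSS) was kept in Earle's Balanced Salt Solution, which holds salts and glucose but no amino acids and no serum. The third had SB202190 at 10 µM, which blocks the p38 alpha and beta MAP kinases, added to EBSS. The RPMI and EBSS groups differ in serum and in nutrients, so the parts of these in a difference between them cannot be told apart. No group held SB202190 in RPMI.

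MYC is a basic helix-loop-helix leucine zipper transcription factor that binds DNA only as a partner of MAX. MAX also pairs with the MXD proteins (MXD1, MXD3, MXD4 and MXI1, which is also called MXD2), with MNT and with MGA, and most of these pairs act as repressors at the sites MYC would use. MLX is a MAX-like protein that pairs with some of the MXD proteins, with MNT and with the glucose sensing factors MondoA and ChREBP. In macrophages MYC is known as a serum and growth factor responsive gene, and its RNA and protein are both short-lived.

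The pairs are known for binding the E-box, a palindrome read the same on both strands. The promoters of the members that hold its canonical form, CACGTG, are shown because they are the places where the network could meet its own genes. RefSeq promoter windows (GRCm38.p6, 250 bases before to 50 after the start of a gene, so 300 in all) were matched for 8 of the 9 members. Myc was the member with no window. The motif was in the windows of 4 of these 8 genes (50%), against 2187 of 27025 genes with a window (8.09%). Such a share is not particular to the members. In the gene lists described below it ran from 5.88% (1 of 17 MYC coactivators and partners) to 55.6% (5 of 9 translation factors). It was above 8.09% in every list but that of the coactivators. Each sequence runs 5′ to 3′ on the strand of its gene, with the E-box in capitals.
Max, chr12:76962239-76962281, minus strand, motif across the start, its first base 3 before it: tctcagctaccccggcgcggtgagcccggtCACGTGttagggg
Mxd4, chr5:34187900-34187959, minus strand, first motif base 219 before the start: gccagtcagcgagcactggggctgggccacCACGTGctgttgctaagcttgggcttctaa
Mnt, chr11:74830771-74830830, plus strand, first motif base 123 before the start: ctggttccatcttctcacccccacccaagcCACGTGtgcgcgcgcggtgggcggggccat
Mlx, chr11:101087220-101087279, plus strand, first motif base 40 before the start: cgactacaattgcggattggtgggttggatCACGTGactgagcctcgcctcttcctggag
The windows of Mxd1, Mxd3, Mga and Mxi1 (3 windows for Mxi1) did not hold these letters. A match is a description of the sequence, and binding was not measured.

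RNA of each condition, 1 source per condition in the labels, was read on 2 of 3 two-colour arrays that form a closed loop, once with the dye Cy5 and once with Cy3. Each condition therefore has 2 readings of what the labels give as 1 source, the spread between them is technical, and no test between conditions can be made. In a bulk sample, fewer cells that express a gene and less RNA per cell cannot be told apart. Of all spots, 40.1% to 49.9% were well above background in a channel, and none was saturated. All 13 macrophage markers on the list (Csf1r, Cd68, Adgre1 and others) were well above background in all 3 conditions. Markers of T cells (4), B cells (3) and epithelial cells (4) were not, and 0 or 1 of 4 fibroblast, 1 of 2 erythroid and 1 of 3 neutrophil markers were.

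Levels are log2 intensities after background correction (normexp), loess normalization within each array, and quantile normalization of the mean intensities of the dyes between the 3 arrays. This last step changes levels and leaves the ratios as they were, so comparisons of levels across arrays rest on it. A difference between conditions is a log2 ratio fitted over the loop, with a technical standard error (SE) from how well the 3 arrays close. A gene counts as measured where its brightest probe was well above background in both readings of at least 1 of the compared conditions. It is called where the fitted log2 ratio is at least 1 in size (2-fold) and where 2 separate measurements each give at least 0.5 in the same direction: the array carrying both conditions, and the sum of the remaining 2 arrays. A second value, the log ratio of the scanner software, is given beside the first because the 2 differ in size for dim probes. Negative control spots (153 per array) had median signals of 106 to 108 in Cy5 and 218 to 228 in Cy3, above their local backgrounds of 64.5 to 66 and 55 to 59. The first method subtracts the local background and adds an offset of 50; the part of these levels in the difference between the methods was not tested.

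Between EBSS and RPMI, 2 of 9 measured members were called higher, Mnt and Mxd1, and none lower. Over all 11873 measured genes, 4.48% were called higher and 2.82% lower (7.3% in all). With SB202190 in EBSS against EBSS, 1 of 8 measured members was called, Myc, which was lower, where 0.889% of 11692 genes were called higher and 2.93% lower (3.81% in all). In EBSS with SB202190 against RPMI, Mxd1 was called higher and Myc lower among 9 measured members, where 1.47% of 11863 genes were called higher and 2.43% lower (3.89% in all). The median log2 ratio of the measured members was 0.32, −0.14 and 0.20 in these 3 comparisons, beside 0.00, 0.00 and 0.01 over all measured genes. The 3 comparisons share their samples pairwise and do not bear each other out. Centring each array on its median in place of loess puts the median of all measured genes at 0.81, −0.45 and 0.34, so a direction holds only relative to the normalization. With that centring 35.8% of measured genes were called higher and 0.194% lower in EBSS against RPMI, 0.154% and 6.58% with SB202190 in EBSS against EBSS, and 1.28% and 0.759% in EBSS with SB202190 against RPMI. By the scanner ratios the shares of all measured genes were 8.1% higher and 9.21% lower, 6.69% and 6.6%, and 4% and 6.52%, and the members called were the same apart from Mxd3, which also met the rule as lower in both comparisons with RPMI, on readings of which neither in EBSS and 1 of 2 with SB202190 was well above background.

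**Figure D1:**
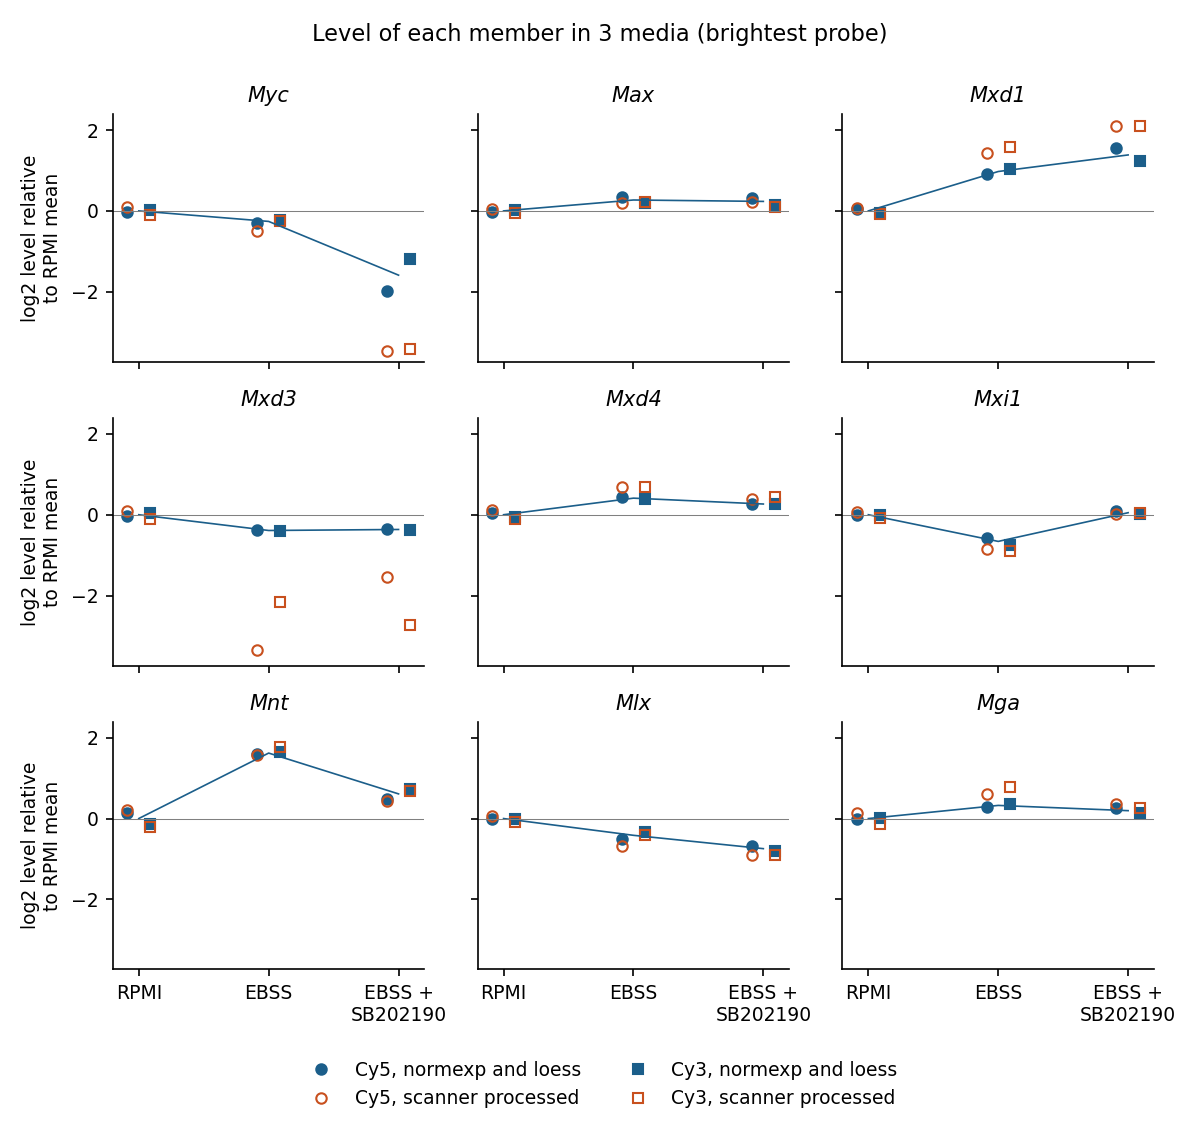
Log2 level of the brightest probe of each member, relative to the mean of its 2 RPMI readings (vertical axis), in RPMI, EBSS and EBSS with SB202190 (horizontal axis). Filled points are levels after normexp, loess and quantile normalization between arrays. Open points are the processed signal of the scanner software, with circles for Cy5 and squares for Cy3. The line joins the means of the filled points: Myc is low in the inhibitor readings, Mnt is high in EBSS, and Mxd1 is high in both EBSS media.

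Myc, the activator of the network, was a little below its RPMI level in EBSS, short of a call, and low in EBSS with SB202190. The brightest of its 3 probes (chr15:61819627-61819687 on the mouse build mm8, plus strand) is printed on 10 spots of each array. Its normalized log2 levels were 10.55 and 10.60 in RPMI (Cy5 and Cy3), 10.28 and 10.35 in EBSS, and 8.59 and 9.38 in EBSS with SB202190. The 2 inhibitor readings lay below the other 4 and were 0.79 apart, while the readings of the other 2 conditions differed by 0.05 and 0.07.

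The repeat spots show the same order in the processed intensity of the scanner software. The median over the 10 spots was 1433.0 (1335.1 to 1509.2) and 1258.3 (1149.2 to 1323.0) in the RPMI channels. In EBSS it was 948.3 (899.9 to 1060.8) in Cy5 and 1117.2 (1043.0 to 1195.3) in Cy3. With SB202190 it was 122.7 (99.3 to 152.7) in Cy5 and 125.4 (112.4 to 136.4) in Cy3. No spot of an inhibitor channel reached the lowest spot of any other channel. The coefficient of variation over the spots was 3.6% to 5.6% in the RPMI and EBSS channels and 6.0% and 11.8% in the inhibitor channels, which covers spot-to-spot error only.

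**Figure D2:**
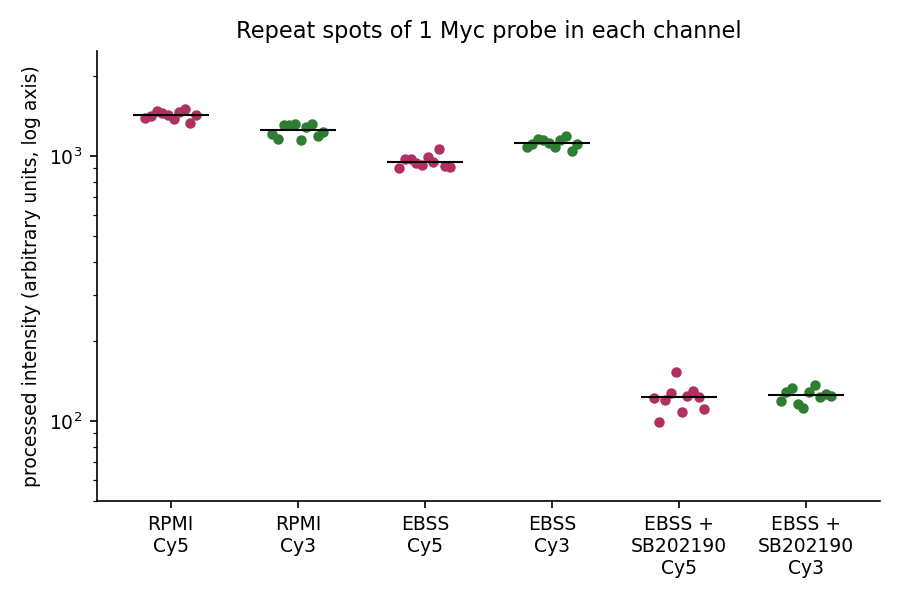
Processed intensity of the 10 spots of the brightest Myc probe in each of the 6 channels (vertical log axis, arbitrary units), with a line at the median. The inhibitor channels have medians of 122.7 and 125.4, and the other 4 channels have medians of 948.3 to 1433.0.

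The fitted log2 ratio of Myc was −0.50 in EBSS against RPMI, −1.21 with SB202190 in EBSS against EBSS, and −1.71 in EBSS with SB202190 against RPMI (technical SE 0.10). The first of these did not reach the call. The scanner software gave −0.38, −2.96 and −3.34, so that Myc was 2.31-fold lower with SB202190 in EBSS by the first method and 7.80-fold lower by the second. With no background correction it was 3.58-fold lower, and with the negative control spots as background 4.71-fold. The 3 arrays did not close for this probe by the first method: the array carrying both conditions gave −0.91 and the remaining 2 arrays gave −1.81 for SB202190 in EBSS against EBSS. For the scanner ratios the same values were −2.94 and −3.01. The loop sum of −0.91 is much larger than the SE, which describes probes of the same brightness in general, and here the direction was the same on both sides while the size was not. Taking the array of both conditions alone, −0.91 misses the 2-fold size and no member is called in that comparison.

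The second Myc probe (chr15:61819528-61819587) gave log2 ratios of −0.47, −0.97 and −1.44 in the same 3 comparisons, and −0.36, −3.09 and −3.45 by the scanner software. The third and dimmest (chr15:61819036-61819095), well above background in only 1 of the 2 inhibitor readings, gave −0.15, −0.31 and −0.46, and 0.01, −2.29 and −2.28 by the scanner software. All 3 probes were lower in EBSS with SB202190 than in either other medium by both methods. For EBSS against RPMI the third probe had no constant sign, and with median centring the brightest probe stood at 0.26, below the median of all genes at 0.81. In EBSS with SB202190 against RPMI, Myc ranked 53rd from the bottom of 11863 measured genes, and 18th by the scanner software.

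Max, the shared partner, had nearly the same level in all 3 media. Its probe (chr12:77856136-77856195, minus strand) read 11.13 and 11.19 in RPMI, 11.51 and 11.35 in EBSS, and 11.49 and 11.30 in EBSS with SB202190. The EBSS readings and the inhibitor readings overlapped, and the RPMI readings were the lowest. The log2 ratios were 0.32, −0.12 and 0.20 (technical SE 0.12), with scanner values of 0.24, −0.03 and 0.21. None was called by either method, and the 2 measurements of SB202190 in EBSS against EBSS differed in sign (−0.21 and 0.07). With median centring Max stood at 1.36 in EBSS against RPMI and was called higher, where the median of all genes was 0.81.

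Mnt, a widely expressed MAX partner that represses through SIN3 corepressors and opposes MYC, was the member that differed most between EBSS and RPMI by the first method. Its probe (chr11:74661608-74661667, plus strand) read 11.71 and 11.46 in RPMI, 13.17 and 13.24 in EBSS, and 12.08 and 12.31 in EBSS with SB202190. The 3 media did not overlap, with EBSS highest and the inhibitor readings between the others. Mnt was 2.86-fold higher in EBSS than in RPMI (log2 ratio 1.51 ± 0.12 technical SE, 181st from the top of 11873 genes). With SB202190 it was 0.87 lower than in EBSS on the log2 scale, under the 2-fold size, and 0.64 above RPMI. The scanner values of 1.55, −0.90 and 0.65 differed from these by less than the technical SE, and the 2 measurements gave 1.53 and 1.48, −0.86 and −0.91, and 0.62 and 0.67. With equal spread between arrays, with median centring or with a 1.5-fold size, Mnt was also called lower with SB202190 in EBSS.

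Mxd1, a repressor that rises as many cells stop dividing and differentiate, was high in both EBSS media by its brightest probe (chr6:86612830-86612889, minus strand). The levels were 9.45 and 9.36 in RPMI, 10.33 and 10.43 in EBSS, and 10.95 and 10.63 in EBSS with SB202190. The media did not overlap, and the order was RPMI, EBSS and EBSS with the inhibitor. The log2 ratios were 1.08, 0.41 and 1.49 (technical SE 0.11), or 1.51, 0.66 and 2.17 by the scanner software. The first and the last were called. With median centring Mxd1 stood at −0.11 for SB202190 in EBSS against EBSS, where the median of all genes was −0.45. The second Mxd1 probe (chr6:86616391-86616450) was dim, at 8.83 and 8.75 in RPMI, 9.10 and 9.10 in EBSS, and 8.98 and 9.05 with SB202190. It gave 0.28, −0.05 and 0.23, and 1.32, −0.31 and 1.01 by the scanner software. The probes therefore disagree in size by the first method and in sign for the inhibitor in EBSS, and Mxd1 was not called in any comparison when the median over probes stood for the gene.

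Mxi1, the MXD protein also known as MXD2, went the other way in EBSS. Its probe (chr19:53425818-53425877, plus strand) read 11.32 and 11.32 in RPMI, 10.74 and 10.58 in EBSS, and 11.41 and 11.33 in EBSS with SB202190. Both EBSS readings lay below the other 4, and the inhibitor readings lay within 0.09 of RPMI. The log2 ratios were −0.66, 0.68 and 0.01 (technical SE 0.11), with scanner values of −0.91, 0.95 and 0.04. These sizes are under 2-fold and none was called, while at 1.5-fold Mxi1 was called lower in EBSS and higher with SB202190 in EBSS. With median centring the EBSS ratio was 0.34, against a median of all genes of 0.81.

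Mxd3, an MXD protein known from proliferating cells, was well above background only in part. The brightest of its 2 probes (chr13:55335261-55335320, minus strand) was so in both RPMI readings, in neither EBSS reading and in 1 of 2 inhibitor readings. It read 8.97 and 9.04 in RPMI, 8.62 and 8.61 in EBSS, and 8.65 and 8.63 with SB202190. Since neither EBSS reading was well above background, only a rough bound is given. By it Mxd3 was 1.29-fold lower in EBSS than in RPMI by this probe and 1.21-fold lower by the second (chr13:55335514-55335687). It is no strict minimum and carries no technical error. On the log2 scale the bounds of 0.37 and 0.28 lay close to the fitted sizes of 0.37 and 0.26. Both rest on the same EBSS readings, so no firm size is read from the bounds. The fitted ratio of the second probe was 1.2-fold, and median centring gave 1.17-fold and 1.09-fold for the 2 probes. A bound sets the mean of the 2 RPMI levels against the floor of probes well above background, or the dim probe's own level where higher. The scanner ratio of the brightest probe met the call rule as lower in EBSS against RPMI, but it sets RPMI against EBSS signals not well above background, so no size is read from it. In EBSS with SB202190 against RPMI the scanner ratios were −1.51 and −0.93 for the 2 probes, with 1 of 2 inhibitor readings well above background. Mxd3 was not measured for SB202190 in EBSS against EBSS.

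Mxd4, an MXD family member also found in dividing cells, differed little. Its brightest probe (chr5:34491044-34491103, minus strand) read 9.35 and 9.26 in RPMI, 9.74 and 9.69 in EBSS, and 9.58 and 9.56 with SB202190. The media did not overlap, in the order RPMI, inhibitor and EBSS, but the steps were small. The log2 ratios were 0.39, −0.13 and 0.26 (technical SE 0.11; scanner 0.64, −0.20 and 0.44), and none was called. With median centring the EBSS ratio was 1.01, which met the call, where the median of all genes was 0.81. A second probe (chr5:34494515-34494574) gave 0.07, −0.08 and −0.02, and the third was not well above background in any channel.

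Mlx, the partner of MondoA and ChREBP, was lowest in EBSS with SB202190. Its brighter probe (chr11:100907202-100907261, plus strand) read 11.19 and 11.19 in RPMI, 10.69 and 10.86 in EBSS, and 10.51 and 10.38 with SB202190. The media did not overlap. The log2 ratios were −0.34, −0.33 and −0.66 (technical SE 0.11; scanner −0.52, −0.27 and −0.79). None was called at 2-fold, and at 1.5-fold Mlx was called lower in EBSS with SB202190 against RPMI. With median centring the EBSS ratio was 0.61, below the median of all genes. The other Mlx probe was not well above background in any channel.

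Mga, a very large MAX partner that also carries a T-box domain and sits in the Polycomb complex PRC1.6, differed little. The brightest probe (chr2:119639642-119639701, plus strand) read 9.30 and 9.34 in RPMI, 9.60 and 9.69 in EBSS, and 9.58 and 9.45 with SB202190. Both EBSS readings were above both inhibitor readings, and RPMI was lowest. It gave log2 ratios of 0.39, −0.15 and 0.24 (technical SE 0.11; scanner 0.71, −0.29 and 0.42). A second probe (chr2:119656257-119656316) gave 0.35, −0.01 and 0.35, and the third was not well above background in any channel.

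**Figure D3:**
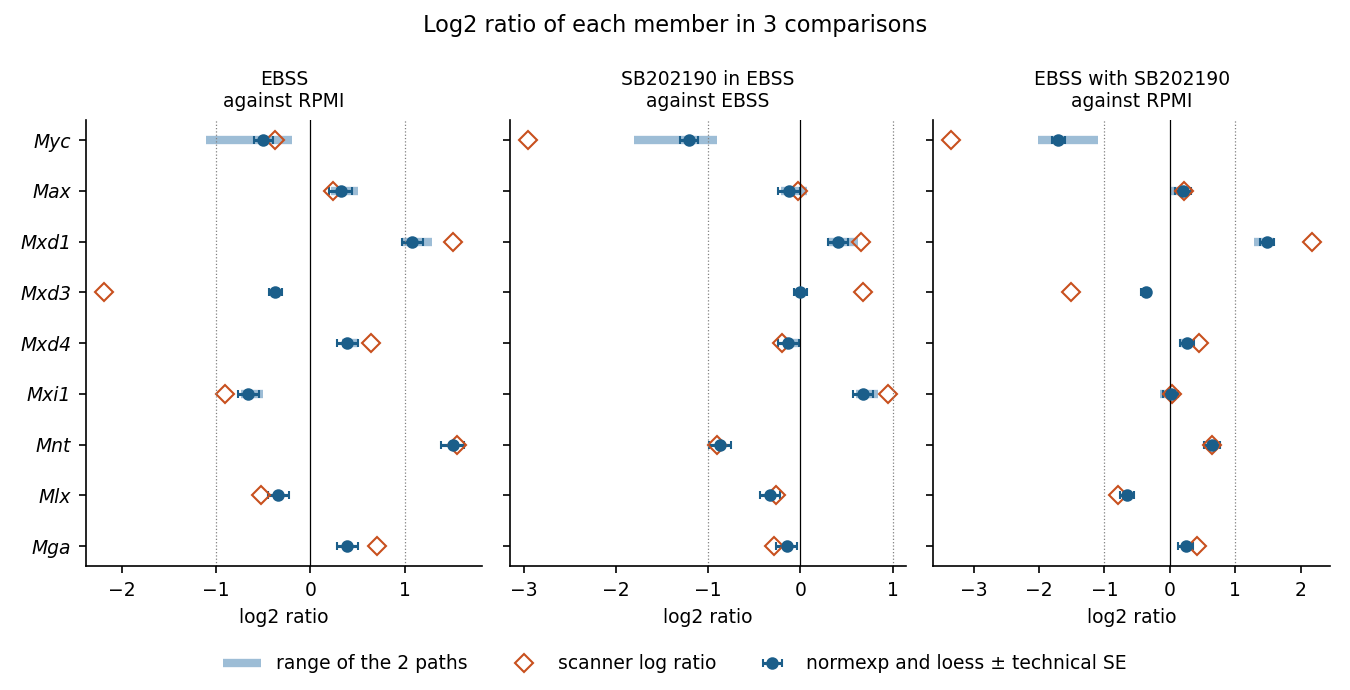
Fitted log2 ratio of each member (brightest probe) in the 3 comparisons, with the technical SE as a bar, a pale band from the array carrying both conditions to the remaining 2 arrays, and the scanner value as an open diamond. The dotted lines mark 2-fold, the scanner values of Mxd3 rest on EBSS readings not well above background, and the band is wide for Myc (−0.91 to −1.81 for SB202190 in EBSS against EBSS) and narrow for Mnt (−0.86 to −0.91).

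The genes around the network were described by 13 lists with 259 genes, all of them on the array. Txnip, Hk2, Zfp36, E2f1 and Wdr5 stand in more than 1 list, so the counts of those lists are not separate observations. Each count below stands beside the share of all measured genes called in that comparison, given above, and no list was tested. The lists were chosen with earlier results of these data known, so their counts partly follow from that choice. With median centring, which called 35.8% of all measured genes higher in EBSS, counts of genes called higher rose with that share, for example to 7 of 14 corepressor genes, 5 of 12 PRC1.6 subunits and 15 of 32 genes of the nucleolus. For other E-box binding factors and MYC paralogs, 1 of 11 measured genes was called higher in EBSS, and the same gene was the 1 called lower with SB202190 in EBSS. It was Bhlhe40, a repressor of E-box genes, with log2 ratios of 1.30 and −1.03 (technical SE 0.11). Scanner ratios put 2 genes higher and 1 lower in EBSS, and 1 higher and 2 lower with the inhibitor. Srebf1, the lipid synthesis factor, stood at −0.93 in EBSS and was not called. None of the 14 SIN3, NCOR and HDAC corepressor genes through which MXD and MNT repress was called in any comparison by either method; Ing1, a SIN3 complex subunit, came nearest, at −0.88 in EBSS and 0.89 with SB202190 in EBSS. None of the 12 measured subunits of PRC1.6 was called by either method, with Cbx3, a heterochromatin protein, at −0.84 and 0.78.

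Of 18 coactivators and other partners of MYC, 1 was called higher in EBSS, the acetyltransferase Crebbp at 1.21, and its other probe stood at 0.05. Kat5, the acetyltransferase TIP60, was at 0.94 in EBSS and −0.97 with SB202190 in EBSS, short of a call, and was called in both by the scanner ratios (1.04 and −1.09). By those ratios 3 of the 18 were called higher and 1 lower in EBSS, and 1 higher and 3 lower with the inhibitor. Of 20 genes that set the stability of the MYC protein, 2 were called higher and 1 lower in EBSS: the ligase subunit Fbxo32 at 1.21 (scanner 2.42), the kinase Gsk3b at 1.09 (scanner 1.90) and the phosphatase inhibitor Set at −1.03, which was not called by the scanner ratios. The other Gsk3b probe stood at 0.28. The inhibitor in EBSS gave 2 of the 20 called lower, the kinase Aurka at −1.10 and Fbxo32 at −1.08 (scanner −2.44). The scanner counts were 4 higher and 1 lower in EBSS, and 0 higher and 4 lower with the inhibitor. Protein was not measured.

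Genes that textbooks give as activated by MYC were taken in 4 lists. Of 32 genes of the nucleolus and of ribosome synthesis, 3 were called lower in EBSS, namely the ribosome assembly factors Ebna1bp2 (−1.29) and Ppan (−1.22) and the RNA polymerase I factor Ubtf (−1.02), and none higher. The list median was −0.07. None of the 32 was called with SB202190 in EBSS, where Myc was called lower, and the median was −0.09; the scanner ratios gave the same counts. Of 38 genes of nucleotide, polyamine and other metabolism, 3 were called higher and 1 lower in EBSS, among them the amino acid carrier chain Slc3a2 (1.34), hexokinase Hk2 (1.32) and the purine synthesis enzyme Gart (−1.07). The scanner counts were 5 higher and 1 lower. Of 12 translation factors, Eif1a was called higher in EBSS (1.24), and Eif1a (−1.17) and the helicase Eif4a1 (−1.07) were called lower with SB202190. The scanner counts were 2 higher in EBSS and 2 lower with the inhibitor.

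Of 21 measured cell cycle genes, 5 were called lower in EBSS and none higher, with a list median of −0.39. They included the cyclins Ccnd1 (−3.03, scanner −4.14), Ccna2 (−1.83) and Ccne1 (−1.52), whose other probe stood at −0.63, and Id2, an inhibitor of differentiation factors (−1.38). In the comparison of the inhibitor with EBSS alone, 1 of 21 was called lower, the mitotic cyclin Ccnb1 at −1.34. Short of a call, Id2 stood at −0.91 and Ccna2 at 0.86. The scanner ratios gave 5 lower in EBSS, and 1 higher and 1 lower with the inhibitor. In EBSS with SB202190 against RPMI, 4 of 21 were called lower. With median centring 1 of the 21 was called lower and 5 higher in EBSS, where the median of the list was 0.87 and that of all genes 0.81.

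Of 17 measured genes given as repressed by MYC through MIZ1 or SP1, 7 were called higher in EBSS and none lower, with a list median of 0.28. Like the other lists, this one was chosen with earlier results of these data known. By the scanner ratios, and with negative control spots as background, 7 were higher and 2 lower. The 3 with the largest ratios were Ndrg1 (4.79), Ddit3 (3.32) and Gadd45a (2.94). These are also known stress genes: Ddit3 encodes CHOP, a factor of the amino acid and endoplasmic reticulum stress responses, and Gadd45a is a growth arrest gene induced by many stresses. Myc itself was not called in this comparison, and the cause of these ratios was not tested. With SB202190 in EBSS, where Myc was called lower, 1 of the 17 was called higher and 4 lower. The first was the NF-kappaB inhibitor Nfkbia (1.42), and Dusp1, a MAP kinase phosphatase (−2.93), and Ndrg1 (−2.87) were among the others. The scanner ratios gave 2 higher and 4 lower there. In EBSS with SB202190 against RPMI, 5 were called higher and 3 lower.

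Of 11 measured targets of MondoA and ChREBP, which act with MLX, 2 were called higher and 3 lower in EBSS. The 2 called higher, Txnip and Hk2, are already counted in the lists of MYC-repressed and of metabolism genes. Txnip, an arrestin-like brake on glucose uptake, stood at 1.95, and fatty acid synthase Fasn (−1.61) and Klf10 (−1.50) were lower, with the other Fasn probe at 0.03. None of the 10 measured with SB202190 in EBSS was called. Their median was 0.28 (scanner 0.84), beside 0.00 (scanner 0.05) over all measured genes. Fasn stood just under the 2-fold size at 1.00, with its other probe at 0.10. Pfkfb3 was at 0.71, Klf10 at 0.67 and Txnip at 0.02, and Hk2 alone was negative, at −0.62. By the scanner ratios 3 were higher and 5 lower in EBSS, and 2 higher with the inhibitor.

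The factors that act on the Myc gene and on its RNA were listed last. Of 23 measured transcription inputs, 2 were called higher and 3 lower in EBSS. Klf4, a factor known to oppose Myc transcription, stood at 2.20, the ERK phosphatase Dusp6 at −3.61 and the ETS factor Elk3 at −2.87. With SB202190 in EBSS, 1 of 24 was called higher and 2 lower, namely Mapk14, the gene of p38 alpha (1.19), Klf4 (−2.35) and Spry2, a brake on receptor signalling (−1.04), whose other probe had a ratio of about 0. Klf4 and Myc were both lower with the inhibitor, and a link between them was not tested. The scanner ratios gave 2 higher and 4 lower in EBSS, and 4 higher and 3 lower with the inhibitor. Of 12 measured genes of Myc RNA decay and internal initiation, none was called in EBSS. With SB202190 in EBSS 1 was called lower, just at the 2-fold size, namely Zfp36 at −1.0 (scanner −1.82), which encodes tristetraprolin, a protein that speeds decay of AU-rich RNAs, and by the scanner ratios 3 were lower. Zfp36l1, of the same family, stood at −0.66 and was called lower in EBSS with SB202190 against RPMI (−1.36).

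**Figure D4:**
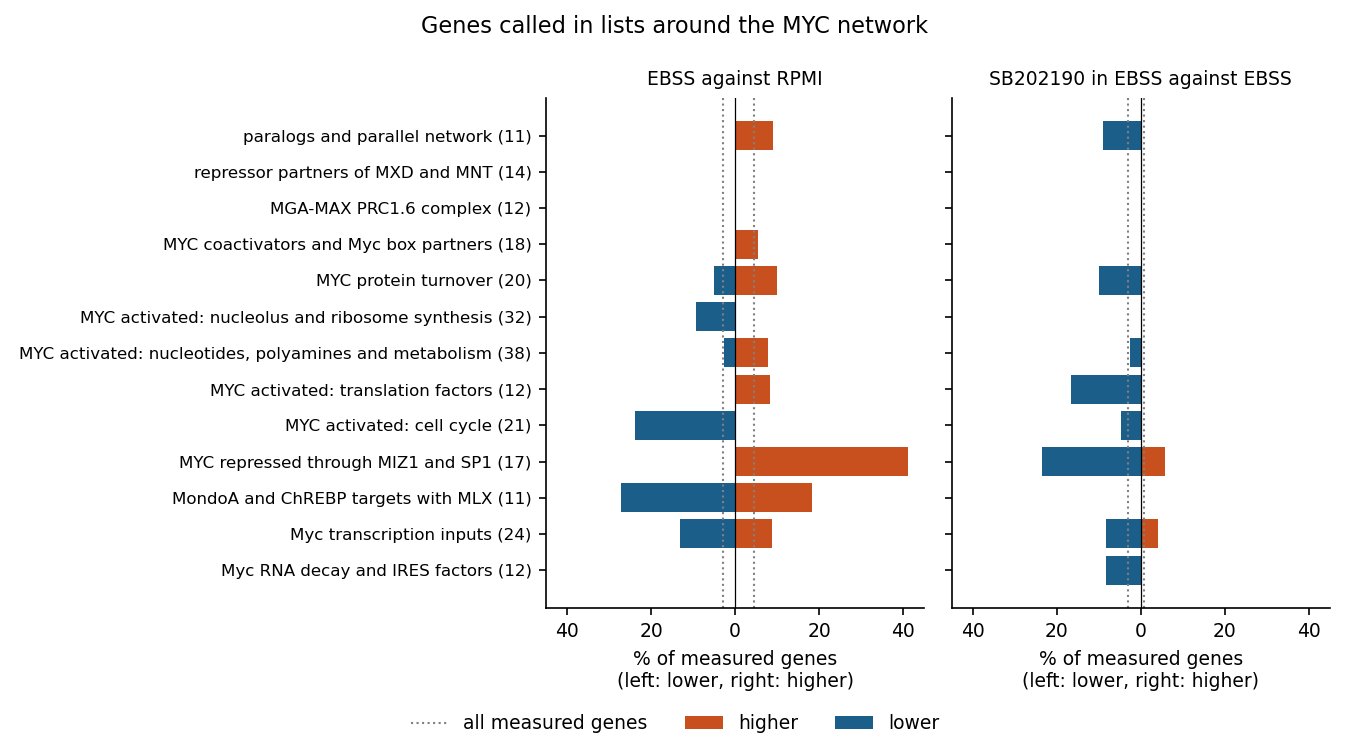
Share of the measured genes of each list called higher (right of 0) or lower (left of 0) in EBSS against RPMI and with SB202190 in EBSS against EBSS, with the largest number measured in brackets and the shares of all measured genes as dotted lines. The longest bars in EBSS against RPMI are the 7 of 17 MYC-repressed genes called higher and the 3 of 11 MondoA and ChREBP targets called lower. All lists were chosen with earlier results of these data known.

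The genes whose pattern was most like that of each called member were taken as the nearest in the plane of 2 log2 ratios, that of EBSS over RPMI and that of the inhibitor over EBSS alone, among 10435 measured genes. The plane rests on 3 conditions and 6 readings, so many genes lie close to one another. Nearest to Myc were Gsdme (−0.52 and −1.11), the chemokine Ccl7 (−0.39 and −1.25) and the kinase Sgk1 (−0.61 and −1.26). Nearest to Mnt were the macrophage growth factor Csf1 (1.54 and −0.86), Tgoln1 (1.45 and −0.88) and the antiproliferative gene Btg1 (1.57 and −0.91). Nearest to Mxd1 were Rassf1 (1.01 and 0.42), Nmnat3 (0.99 and 0.43) and Zfp959 (1.09 and 0.54). By the scanner ratios the 3 nearest to Myc were Ccl12, Fut4 and Alkbh1, and of the 9 genes above only Zfp959 was again among the nearest.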

How the data were processed

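RNA from 3 conditions was read on 3 two-colour Agilent arrays. The deposited intensity values are spot mean signals, local background medians and processed signals from Agilent Feature Extraction 9.5.3.1, per the submitters' processing notes. The deposited log10 ratios, also from that software per the file headers, were turned to log2. The deposited value table holds log2 ratios, Cy5 over Cy3 and uncentred (array medians −0.085, −0.077 and −0.166), that correlate with the scanner ratios of the same arrays at 0.987 to 0.997; it was used only for this check. Probe positions are those of the file headers' build, mm8; whether probes lie in exons or UTRs was not analysed here.

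Mean signals were corrected with limma 3.58.1 in R 4.3.3 (normexp, offset 50), then loess within arrays with control spots at weight 0. For levels only, mean intensities were then quantile normalized between arrays. Of 41174 probes, 49 flagged as outliers were left out. Spots of a probe were averaged, and the brightest probe stood for its gene. Probes of other genes were named through RefSeq (GRCm38.p6) where matched: 24350 by accession, 6290 by symbol and 2422 by synonym. Log2 ratios were fitted over the loop by least squares, with SE from the loop sums in 30 bins of intensity. The median SE was 0.111. The calculation was tested on simulated data.

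Named genes were all members, the 3 with the largest ratios per list in EBSS against RPMI and in SB202190 in EBSS against EBSS, and the 3 nearest to each called member. The members and lists were chosen with earlier results of these data known. There were 12 alternatives, and 1 more, the negative control spots as background, was chosen after seeing the data.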

Additional observations from a re-analysis of the deposited data

How the results depend on the processing

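Counts of called members moved with several choices. In EBSS against RPMI, where 2 members were called higher and 0 lower, median centring in place of loess gave 4 higher (Max, Mxd1, Mxd4 and Mnt), and equal spread between arrays, the single array carrying both conditions, and the median over the probes of a gene each gave 1 (Mnt). In the same comparison 1 member was called lower by the scanner log ratio (Mxd3), by the remaining 2 arrays alone (Myc) and at 1.5-fold (Mxi1). With SB202190 in EBSS against EBSS, where 1 was called lower, median centring, equal spread and 1.5-fold each gave 2 (Myc and Mnt), the single array and the median over probes each gave 0, and 1.5-fold gave 1 higher (Mxi1). In EBSS with SB202190 against RPMI, where 1 was called higher and 1 lower, the median over probes gave 0 higher, 1.5-fold gave 2 higher (Mxd1 and Mnt) and 2 lower (Myc and Mlx), and the scanner log ratio gave 2 lower (Myc and Mxd3). The cause of each shift was not tested beyond the change of rule itself.

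The log2 ratios of members kept their sign in 78 of 81, 70 of 72 and 78 of 81 values over the 3 comparisons. The exceptions were Myc, Mxi1 and Mlx in EBSS against RPMI with median centring, Mxd1 (median centring) and Max (remaining 2 arrays alone) with SB202190 in EBSS against EBSS, and Mxi1 in EBSS with SB202190 against RPMI, with no background correction, with the remaining 2 arrays alone and with negative control spots as background. No paired analysis was possible because each condition has 1 sample with no replicate number. Signal over background limits Mxd3 (a rough bound only in EBSS), all 3 Myc probes and the second Mxd1 probe. For the brightest Myc probe with SB202190 in EBSS, the log2 ratio was −1.21, −1.84 with no background correction, −2.24 with negative control spots as background and −2.96 by the scanner ratio.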
